A study of Mus musculus with 56 samples.

Results

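The day of birth was compared with late gestation in cortical thymic epithelial cells (cTECs) of the mouse: 3 samples taken on the day of parturition (D0) against 3 taken at day 18 of gestation, 2 days before parturition (D-2). These 6 samples, chosen by their labelled cell type and time point, belong to a series of 56 that also holds medullary thymic epithelial cells (mTECs), non-pregnant controls (NPC) and later postpartum days. B6.SJL females (B.6SJL-Ptprca Pep3b/BoyJ-CD45.1) had been mated with BALB/cJ males in both groups, and no drug or genetic manipulation separated them. No D0 female nursed her litter, because the pups had been taken away. Each replicate came from a different mouse, and cTECs were sorted as EpCAM+ CD45- UEA1- cells after enzymatic digestion of the stroma and enrichment on EpCAM beads. The p-values measure the spread between these mice.

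The cortex of the thymus is where lymphoid progenitors commit to the T lineage and where thymocytes are positively selected. Its epithelium supplies the Notch ligand DLL4, the chemokines CCL25 and CXCL12, and a set of proteases that make the peptides used in positive selection, and the transcription factor FOXN1 drives much of this programme. The thymus involutes during pregnancy under progesterone and other hormones, and regrows after birth, when progesterone has fallen.

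Levels are given as FPKM, fragment counts scaled to the length of the gene and the size of the library, for replicates 1, 2 and 3 in that order. Differences are log2 fold changes of D0 over D-2 from limma-voom on counts, with a standard error and a Benjamini-Hochberg adjusted p over 15845 genes, and a gene was called at a fold-change of at least 2 with an adjusted p of at most 0.01. The libraries held 8495657, 11639179 and 8819706 expected counts at D-2 and 10971733, 28034066 and 32439692 at D0, so 2 of the D0 libraries were deeper than any D-2 library. Mitochondrially encoded genes took 2.66% to 2.78% of the counts at D-2 and 1.74% to 2.61% at D0, and the 50 most abundant genes took 16.7% to 18.9% and 14.8% to 16.3%. Neither range overlapped between the time points, so both measures moved with every difference described here, and their part in it was not tested. Replicate 1 of each time point was least like the others. The median correlation of D-2 replicate 1 with the other libraries was 0.891, and that of D0 replicate 1 was 0.906, against 0.926 to 0.948 for the rest.

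No gene was called by limma-voom (0.0% of those tested), and none reached an adjusted p of 0.05. The smallest adjusted p from limma-voom was 0.152, shared by 5 genes that included *Psmb11* and *Fabp5*. Without adjustment, 1107 genes (6.99%) had a p of at most 0.05, of which 585 (3.69%) were higher and 522 (3.29%) lower at D0. The edgeR quasi-likelihood test called 1 gene, with 1030 at an unadjusted p of at most 0.05, and DESeq2 called 21 (11 higher and 10 lower), with 1094. All 3 D0 samples lay above all 3 D-2 samples for 1120 genes (7.07%) and below them for 760 (4.8%). These percentages are the background for each list of genes that follows, because the lists are described by such counts and by their median, which was 0.01 over all genes tested.

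**Figure D1:**
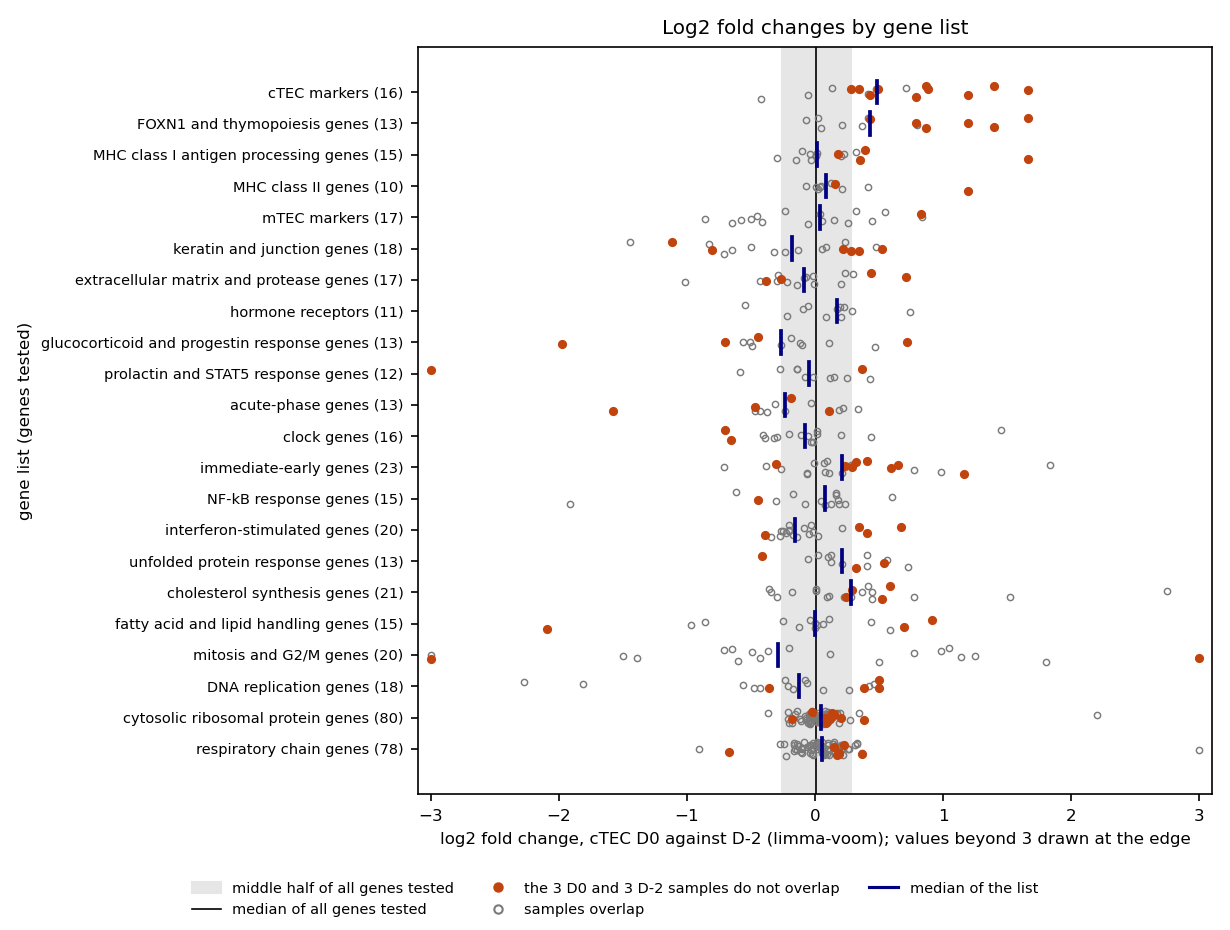
Log2 fold changes of cTEC D0 against D-2 (limma-voom, horizontal axis) for the tested members of 22 gene lists. Filled points are genes whose 3 D0 and 3 D-2 samples do not overlap, blue bars are list medians, and the grey band runs from −0.26 to 0.28, the middle of all genes tested. 5 values beyond 3 are drawn at the edge. The medians of the cTEC marker (0.48) and thymopoiesis (0.43) lists lie to the right of the band.

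The labelled cell type was checked against its markers. All 16 cTEC markers passed the filter on level. The levels of *Ackr4* (encoding a scavenging receptor for CCL25 and CCL21) were 151 to 193 FPKM at D-2 and 105 to 180.5 at D0. In the mTECs of the same time points they were 12.9 to 26.5 and 9.73 to 13.9. Other markers separated the cell types less evenly. By the mTEC levels given below, *Prss16* was higher in cTECs at both time points, whereas *Dll4* overlapped between the cell types at D-2. Medullary genes were also present in the cTEC libraries. *Aire*, the regulator of tissue-restricted antigens, was at 4.66 to 14.1 FPKM at D-2 and 3.83 to 6.60 at D0, against 50.1 to 149 and 38.8 to 91.3 in mTECs. The chemokine gene *Ccl21a* reached 3759.7 to 6267 FPKM at D-2 and 4992 to 5617 at D0, against mTEC levels of 7515 to 13748 at D-2. The 17 tested mTEC markers had a median log2 fold change of 0.04.

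Markers of blood and vessel cells were low and those of fibroblasts higher. The summed level of 20 thymocyte markers was 39.1 to 41.8 FPKM at D-2 and 35.5 to 60.6 at D0, and that of 18 macrophage and dendritic cell markers 16.6 to 40.1 and 28.9 to 37.8. Both ranges overlapped between the time points, although the list medians were 0.51 for the 20 thymocyte genes and 0.87 for the 11 macrophage and dendritic cell genes tested, which is above the medians of the cTEC lists given below. Without replicate 1 of both time points these medians were 0.28 and 0.27, and without D0 replicate 3 the second was 0.12. *Ptprc*, which encodes the CD45 used as a negative gate, was at 1.02, 0.630 and 0.770 FPKM at D-2 and 2.62, 0.410 and 2.13 at D0. Fibroblast markers summed to 289 to 376 FPKM at D-2 and 204 to 290.4 at D0, most of it *Dcn*, whereas the defining *Col1a1* was at most 2.84 FPKM. The B cell, endothelial and erythroid lists summed to at most 41.4, 9.72 and 9.57 FPKM in any of the 6 samples. The part of these cells in the results below was not tested. In bulk samples, fewer cells of a type and less RNA per cell cannot be told apart.

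Parathyroid genes were abundant and varied widely between samples. *Pth*, encoding parathyroid hormone, was at 2386, 4518 and 208 FPKM at D-2 and 879, 1780.3 and 533 at D0, and the secretory granule gene *Chga* was at 3258, 4777 and 232 FPKM at D-2 and 881, 1757 and 667 at D0. D-2 replicates 1 and 2 were highest and D-2 replicate 3 lowest for both genes. They were singled out after their values were seen, and their part in the other differences was not tested.

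Genes for thymopoiesis were above 0 more often than genes at large. None was called by limma-voom, and DESeq2 called *Psmb11* and *Prss16*. FOXN1 and 12 genes for homing, Notch signalling, survival and antigen presentation had a median log2 fold change of 0.43, and 12 of the 13 were above 0, against 51.3% of all genes. For 6 of the 13, all D0 samples lay above all D-2 samples, against 7.07% of all genes, and for none did they lie below. Members were chosen with earlier results of these data known, and the paper reports most of them as lower at D-2 than in NPC. These contrasts with all genes therefore describe the list and are no independent support. The 16 cTEC markers, which share 7 genes with that list, had a median of 0.48, with 10 higher without overlap. With replicate 1 of both time points left out, the medians were 0.61 and 0.56. As single samples were left out, the thymopoiesis median ranged from 0.27 (without D-2 replicate 2) to 0.59, and the cTEC marker median from 0.42 to 0.56.

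*Foxn1* itself (chr11:78357577-78386558, minus strand, GRCm38) encodes the transcription factor on which the identity of thymic epithelium depends. It was at 109, 74.3 and 92.3 FPKM at D-2 and 169.9, 157 and 178 at D0. The D0 samples were close together and the lowest of them was well above the highest D-2 sample. The log2 fold change of *Foxn1* was 0.86 (standard error 0.14, adjusted p = 0.156).

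Proteases of antigen processing showed the largest difference of the list. *Psmb11* (chr14:54621433-54629556, plus strand) encodes the β5t subunit of the thymoproteasome, which makes the MHC-I peptides of the cortex. It was at 36.2, 15.9 and 29.9 FPKM at D-2 and 85.7, 79.2 and 80.5 at D0. All D0 samples lay far above the highest D-2 sample. *Psmb11* differed by 1.67 (standard error 0.23, adjusted p = 0.152), and the value was 1.27 to 1.90 as each sample was left out in turn. DESeq2 called it with an adjusted p of 2.06e-07. *Prss16* (chr13:22002173-22009742, minus strand) encodes the thymus-specific serine protease of the MHC-II pathway. It was at 278, 169.7 and 214 FPKM at D-2 and 519, 623 and 389.9 at D0, again without overlap, a difference of 1.19 (standard error 0.22, adjusted p = 0.184). DESeq2 called it with an adjusted p of 2.41e-05. *Ctsl*, encoding the cathepsin that degrades the invariant chain in cTECs, was at 1281, 759 and 1029 FPKM at D-2 and 1306, 1651 and 1161 at D0, where the groups overlapped (0.42, standard error 0.18, adjusted p = 0.712).

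Of the ligands and cytokines for incoming progenitors, *Dll4*, *Ccl25* and *Cxcl12* were higher in all D0 samples. *Dll4* (chr2:119325784-119335962, plus strand) encodes the Notch ligand that commits progenitors to the T lineage. Its level was low, at 5.37, 3.03 and 3.13 FPKM at D-2 and 8.19, 10.2 and 10.3 at D0, without overlap. *Dll4* differed by 1.4 (standard error 0.29, adjusted p = 0.238). *Ccl25*, whose product draws CCR9+ progenitors, was at 535, 240.4 and 404 FPKM at D-2 and 741, 683 and 564 at D0, without overlap (0.79, standard error 0.23, adjusted p = 0.523). *Cxcl12*, the ligand of CXCR4, was at 407, 284 and 382 FPKM at D-2 and 509, 526 and 437 at D0, with a smaller gap between the groups (0.43, standard error 0.14, adjusted p = 0.627). The cytokine gene *Il7*, needed for thymocyte survival, was at 53.9, 53.5 and 83.0 FPKM at D-2 and 89.5, 77.9 and 80.9 at D0 and overlapped (0.37, standard error 0.17, adjusted p = 0.724).

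Of the remaining cTEC markers, *Ly75* and *Cd274* separated the time points. *Ly75*, encoding the endocytic receptor DEC-205 (CD205), was at 33.4, 24.7 and 30.1 FPKM at D-2 and 41.6, 57.8 and 61.5 at D0 (0.88, standard error 0.17, adjusted p = 0.199). *Cd274*, encoding the inhibitory ligand PD-L1, was at 77.3, 83.7 and 59.5 FPKM at D-2 and 116, 104 and 99.5 at D0 (0.49, standard error 0.14, adjusted p = 0.462). The keratins *Krt8* and *Krt18* of simple epithelium did so by smaller amounts, 0.34 and 0.28. *Tbata* overlapped, since D-2 replicate 1 (601 FPKM) lay among the D0 samples (556 to 649). *Epcam*, the gene of the sorted surface marker, was at 63.5, 135 and 103 FPKM at D-2 and 145, 135 and 138 at D0, with D-2 replicate 1 lowest. *Ackr4* was the cTEC marker with the lowest value (−0.42, standard error 0.21, adjusted p = 0.745).

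**Figure D2:**
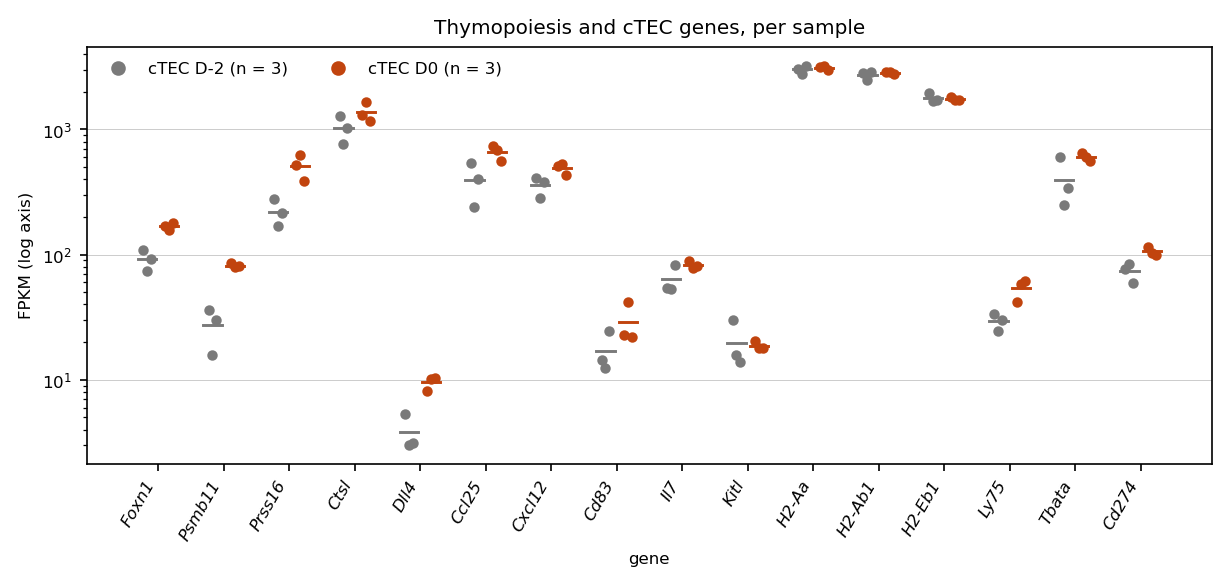
FPKM (log axis) of 16 thymopoiesis and cTEC genes in the 3 D-2 samples (grey) and 3 D0 samples (orange), with each group's mean as a bar. *Psmb11*, *Prss16*, *Dll4*, *Foxn1*, *Ccl25* and *Ly75* show gaps between the groups, whereas *H2-Aa*, *H2-Ab1* and *H2-Eb1* overlap.

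The promoters of these genes can be set beside the values, because GACGC is the core that FOXN1 recognises. RefSeq promoters on GRCm38.p6 (250 bases before to 50 after the start site) were at hand for 9 of the 13 genes, with 2 start sites for *Ccl25* and thus 10 promoters. Of the 10, 4 held GACGC or its reverse complement GCGTC, against 27.2% of all 32851 promoters in the table. They were those of *Psmb11*, *Cxcl12*, *Kitl* and the upstream start of *Ccl25*, whereas its other start held neither. Of the 6 genes higher without overlap, the promoters of the 3 that held the motif are shown. They run 5′ to 3′ on the plus strand of the genome with the motif in capitals. *Psmb11* holds GCGTC at 239 and 62 bases before its start site, *Ccl25* holds GACGC 56 bases before and GCGTC 12 bases after its upstream start, and *Cxcl12* holds GCGTC 62 bases before. The promoters of *Foxn1* and *Dll4*, which also did not overlap, held neither form in this window, and none was at hand for *Prss16*. A match is a description of the letters and not of binding.
Psmb11 chr14:54625060-54625359: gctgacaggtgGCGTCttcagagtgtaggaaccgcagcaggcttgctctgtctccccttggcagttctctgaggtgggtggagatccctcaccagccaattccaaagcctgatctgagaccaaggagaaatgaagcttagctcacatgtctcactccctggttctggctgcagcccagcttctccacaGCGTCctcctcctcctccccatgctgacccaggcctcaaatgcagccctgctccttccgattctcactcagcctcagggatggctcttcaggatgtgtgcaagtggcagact
Ccl25 chr8:4324960-4325259: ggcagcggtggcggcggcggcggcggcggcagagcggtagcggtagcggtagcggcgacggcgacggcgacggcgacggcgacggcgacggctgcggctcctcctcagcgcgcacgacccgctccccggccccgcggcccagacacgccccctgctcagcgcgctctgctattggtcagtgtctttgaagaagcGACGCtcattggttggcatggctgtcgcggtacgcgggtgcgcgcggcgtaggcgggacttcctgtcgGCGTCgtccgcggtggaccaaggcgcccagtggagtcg
Cxcl12 chr6:117168285-117168584: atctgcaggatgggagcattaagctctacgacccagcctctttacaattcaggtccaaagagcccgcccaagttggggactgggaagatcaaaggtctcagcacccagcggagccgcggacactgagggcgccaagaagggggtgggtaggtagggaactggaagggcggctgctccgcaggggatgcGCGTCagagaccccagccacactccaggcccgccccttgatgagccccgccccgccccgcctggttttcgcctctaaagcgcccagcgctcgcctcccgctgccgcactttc

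The MHC class II genes had small differences. Of 10, 9 were above 0, against 51.3% of all genes, and the median was 0.08. Of these, 2, *Prss16* and *Cd74*, were higher without overlap (against 7.07% of all genes). *Cd74*, encoding the invariant chain, was at 5769.8, 5750.1 and 5648 FPKM at D-2 and 6561, 6815 and 6317 at D0, a difference of 0.15 (standard error 0.08, adjusted p = 0.760). The class II chains *H2-Aa* (0.02), *H2-Ab1* (0.05) and *H2-Eb1* (−0.07) had standard errors of 0.09, 0.09 and 0.09, and all 3 overlapped. *Cd83*, whose product stabilises MHC-II at the surface of cTECs, was at 14.3, 12.3 and 24.6 FPKM at D-2 and 22.7, 41.8 and 22.2 at D0, with D-2 replicate 3 reaching into the D0 range (0.80, standard error 0.35, adjusted p = 0.712).

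Among 15 MHC class I processing genes the median was 0.02 and 4 were higher without overlap (against 7.07% of all genes). Besides *Psmb11* these included *Psmb10*, an immunoproteasome subunit (198, 176 and 219.9 FPKM at D-2, 274, 235 and 284 at D0), and *Tap2*, a subunit of the peptide transporter (63.8, 75.8 and 66.4 FPKM at D-2, 89.3, 91.3 and 82.9 at D0). Both differences were small, 0.39 (standard error 0.13, adjusted p = 0.624) and 0.35 (standard error 0.11, adjusted p = 0.627). *B2m*, the light chain of MHC-I, was on the other side of 0 (−0.30, standard error 0.13, adjusted p = 0.702) and overlapped.

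Genes that respond to steroid hormones were examined because progesterone falls at birth. None was called by limma-voom, and DESeq2 called *Zbtb16*. Progesterone and glucocorticoids act through nuclear receptors that switch on a shared set of genes. The receptors were expressed in these cells. *Pgr*, for the progesterone receptor, was at 10.6, 12.6 and 18.2 FPKM at D-2 and 6.06, 12.6 and 11.5 at D0, which overlapped (−0.55, standard error 0.25, adjusted p = 0.714), and *Nr3c1*, for the glucocorticoid receptor, was at 34.4, 32.8 and 33.6 FPKM at D-2 and 33.2, 41.7 and 36.6 at D0 (0.19, standard error 0.14, adjusted p = 0.804). None of the 11 receptors tested separated the time points, where 7.07% of all genes were higher and 4.8% lower without overlap. Their median was 0.17, or −0.08 without D-2 replicate 1.

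Of 13 glucocorticoid and progestin response genes, 10 were below 0, 3 were lower without overlap (against 4.8% of all genes) and 1 was higher, and the median was −0.27. *Zbtb16*, encoding the transcription factor PLZF, was at 4.14, 5.49 and 6.00 FPKM at D-2 and 2.34, 1.19 and 1.46 at D0. It differed by −1.97 (standard error 0.33, adjusted p = 0.168), and DESeq2 called it with an adjusted p of 0.00734. *Per1*, also a clock gene, was at 36.9, 42.5 and 26.2 FPKM at D-2 and 17.4, 20.7 and 22.0 at D0, without overlap (−0.70, standard error 0.16, adjusted p = 0.347). The third was *Nfkbia*, the inhibitor of NF-κB (−0.44, standard error 0.18, adjusted p = 0.689). *Fkbp5*, the co-chaperone that tunes steroid receptors, was at 78.7, 38.9 and 54.7 FPKM at D-2 and 45.8, 36.1 and 35.3 at D0, where D0 replicate 1 exceeded D-2 replicate 2 (−0.56, standard error 0.21, adjusted p = 0.675). Members of the same list pointed the other way. *Ddit4*, an inhibitor of mTORC1, was at 7.75, 10.3 and 8.14 FPKM at D-2 and 15.8, 13.0 and 16.3 at D0, without overlap (0.72, standard error 0.27, adjusted p = 0.675), and *Tsc22d3* (GILZ) was at 0.47 (standard error 0.25, adjusted p = 0.770).

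The 12 prolactin and STAT5 response genes had a median of −0.05. Of the 12, 1 was lower and 1 higher without overlap, against 4.8% and 7.07% of all genes. The lower one was *Elf5*. The higher one was *Pim1*, a STAT5-induced kinase gene, at 60.8, 53.2 and 58.8 FPKM at D-2 and 74.6, 91.3 and 64.1 at D0 (0.37, standard error 0.16, adjusted p = 0.709). *Socs2*, a feedback inhibitor of cytokine signalling, was at 21.2, 24.9 and 29.3 FPKM at D-2 and 22.0, 20.4 and 12.2 at D0 and overlapped (−0.59, standard error 0.23, adjusted p = 0.679).

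*Serpina3n* stood out among 13 acute-phase genes. It encodes a secreted inhibitor of serine proteases (chr12:104406729-104414329, plus strand) and was at 178, 175 and 239 FPKM at D-2 and 52.7, 107 and 50.1 at D0. Every D-2 sample was above every D0 sample, and D0 replicate 2 was the nearest to them. *Serpina3n* differed by −1.58 (standard error 0.26, adjusted p = 0.168), and it passed both thresholds when D0 replicate 2 was left out, at −1.97 with an adjusted p of 0.00402 from limma-voom. *Il6ra*, a receptor for IL-6, was lower without overlap by a small amount (−0.47, standard error 0.16, adjusted p = 0.653), at 10.4, 10.7 and 12.3 FPKM at D-2 and 7.98, 9.26 and 9.11 at D0. *Lcn2* (−0.43) and the complement gene *C3* (−0.23) overlapped. The median of the list was −0.23 (−0.34 to −0.03 as each sample was left out, nearest to 0 without D0 replicate 3). Without overlap on FPKM, 3 members were lower (*Cp*, for ceruloplasmin, being the third) and *Socs3* was higher, against 4.8% and 7.07% of all genes. On TMM-scaled counts 2 were lower and 1 higher, against 5.67% and 7.35%. *Cp* differed by only −0.19 on counts (standard error 0.26, adjusted p = 0.895 from limma-voom).

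*Nr1d1*, encoding the clock repressor REV-ERBα, was at 104, 98.2 and 128 FPKM at D-2 and 69.8, 70.9 and 72.6 at D0. The D0 values lay within 3 FPKM of each other and below every D-2 value (−0.66, standard error 0.13, adjusted p = 0.199). With *Per1* it made 2 of 16 clock genes lower without overlap, against 4.8% of all genes. The list had a median of −0.08 (−0.24 without D0 replicate 3). The hours of collection were not given in the sources used here.

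Lipid genes went both ways and their median was 0.00. *Angptl4*, encoding a secreted inhibitor of lipoprotein lipase, was at 47.8, 54.9 and 56.7 FPKM at D-2 and 5.10, 32.8 and 7.80 at D0. D0 replicate 2 stood between the D-2 samples and the other D0 samples. *Angptl4* differed by −2.10 (standard error 0.45, adjusted p = 0.261) and, without D0 replicate 2, by −2.95 with an adjusted p of 0.0036 from limma-voom. *Pdk4*, which limits the use of pyruvate, was also highest among D0 samples in replicate 2, at 62.6, 31.2 and 26.4 FPKM at D-2 and 11.6, 42.2 and 13.0 at D0 (−0.86, standard error 0.32, adjusted p = 0.675).

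On the higher side, *Fabp5*, encoding a fatty acid binding protein of epithelia, was at 217, 212 and 153 FPKM at D-2 and 400.2, 359 and 354 at D0. Its groups were separated by more than the spread of either (0.91, standard error 0.14, adjusted p = 0.152). *Scd2*, a desaturase gene, was at 38.5, 39.5 and 35.4 FPKM at D-2 and 67.4, 45.7 and 80.3 at D0 (0.69, standard error 0.19, adjusted p = 0.462). *Srebf1*, encoding a regulator of lipid synthesis, and *Fasn*, encoding fatty acid synthase, differed by 0.58 and 0.44 with overlap. Of 21 cholesterol synthesis genes 17 were above 0, against 51.3% of all genes, with a median of 0.28 (0.15 without D-2 replicate 3). Higher without overlap were 4 (against 7.07% of all genes), among them *Sc5d* (0.52, standard error 0.19, adjusted p = 0.653) and *Acat2* (0.59, standard error 0.25, adjusted p = 0.702).

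Immediate-early genes, which cells switch on within minutes of a stimulus or of tissue handling, were expressed at both time points. Of 23, 7 were higher and 1 lower without overlap (against 7.07% and 4.8% of all genes), and the median was 0.21, which fell to 0.04 without D0 replicate 2. *Atf3*, encoding a stress-induced transcription factor, was at 408, 456 and 373 FPKM at D-2 and 506, 825 and 581 at D0 (0.59, standard error 0.17, adjusted p = 0.544). *Jund*, of the AP-1 family, was at 167, 244 and 158 FPKM at D-2 and 273, 348 and 281 at D0 (0.64, standard error 0.17, adjusted p = 0.432). *Egr1* was at 1014, 1086 and 1016 FPKM at D-2 and 1187, 1268 and 1308 at D0, a narrow but complete separation (0.23, standard error 0.08, adjusted p = 0.667). *Egr2* had a larger and noisier difference (1.17, standard error 0.48, adjusted p = 0.697), from 7.24, 15.8 and 23.5 FPKM at D-2 to 35.1, 44.3 and 28.1 at D0. *Klf6* was the 1 lower without overlap (−0.30, standard error 0.10, adjusted p = 0.627). Of the 23 members, 16 were above 0 and 7 below, the lowest at −0.71, and *Dusp1* (−0.39) overlapped.

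Interferon-stimulated genes split. Of 20, 3 were higher and 1 lower without overlap on FPKM (against 7.07% and 4.8% of all genes). On TMM-scaled counts these were 3 and 3 (against 7.35% and 5.67%). *Irf1*, encoding the transcription factor induced by interferon-γ, was at 199, 193 and 252 FPKM at D-2 and 283, 376 and 324 at D0 (0.67, standard error 0.16, adjusted p = 0.379). *Cxcl10*, a chemokine gene under its control, was at 271, 313 and 309 FPKM at D-2 and 416, 422 and 428 at D0 (0.41, standard error 0.11, adjusted p = 0.439). Both separated the time points. Against these, 15 of the 20 members were below 0 and 5 above it, where 51.3% of all genes were above 0. The median was −0.16. *Irf7*, a regulator of the type I response, was lower without overlap (−0.39, standard error 0.14, adjusted p = 0.653), at 107, 152 and 130.0 FPKM at D-2 and 105, 90.9 and 92.1 at D0, and *Oasl2* was at −0.26 (standard error 0.11, adjusted p = 0.708) and overlapped. The 15 NF-κB response genes had a median of 0.08. On FPKM *Nfkbia* was the only one without overlap, where 7.07% of all genes were higher and 4.8% lower. On TMM-scaled counts 1 was higher and 1 lower without overlap, against 7.35% and 5.67%.

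**Figure D3:**
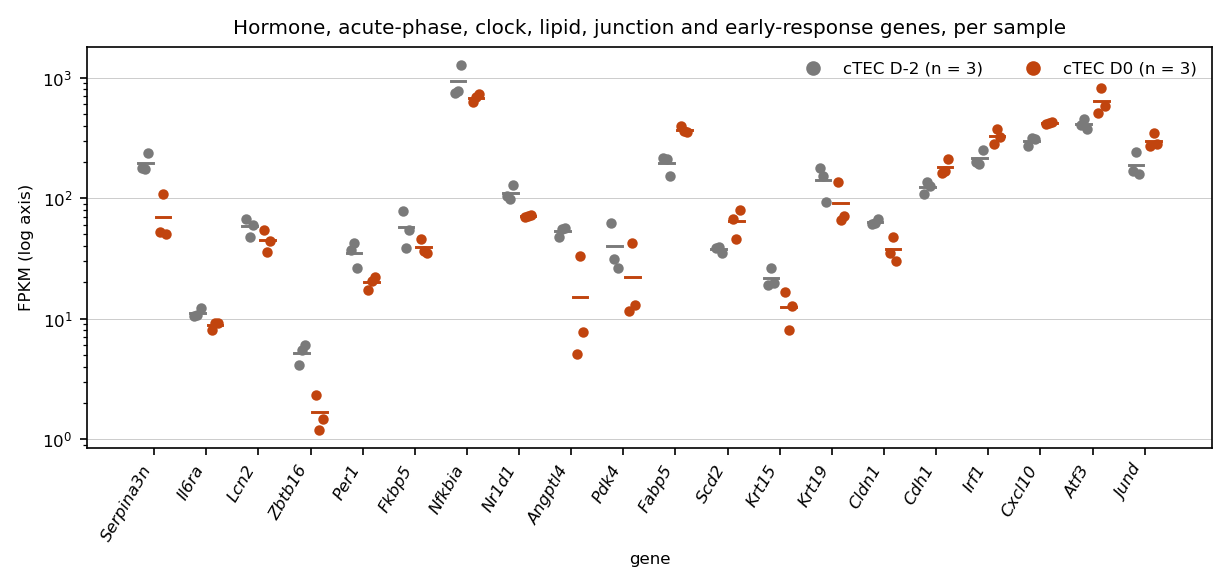
FPKM (log axis) of 20 genes from the acute-phase, steroid response, clock, lipid, keratin and junction, interferon and immediate-early lists in the 3 D-2 samples (grey) and 3 D0 samples (orange), with group means as bars. *Serpina3n*, *Zbtb16*, *Nr1d1* and *Angptl4* are lower at D0, with D0 replicate 2 nearest to the D-2 samples for *Serpina3n* and *Angptl4*, and *Fabp5*, *Irf1*, *Cxcl10*, *Atf3* and *Jund* are higher.

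Epithelial structure genes were divided. Of 18 keratin and junction genes, 4 were higher and 2 lower without overlap (against 7.07% and 4.8% of all genes). The median was −0.18, or 0.05 without D-2 replicate 2. *Krt15*, a keratin of basal progenitor-like epithelium, was at 19.0, 26.3 and 19.9 FPKM at D-2 and 16.6, 8.11 and 12.8 at D0 (−1.12, standard error 0.30, adjusted p = 0.443). *Cldn1*, a tight junction gene, was at 60.7, 62 and 67.7 FPKM at D-2 and 34.9, 48.0 and 30.2 at D0 (−0.81, standard error 0.18, adjusted p = 0.291). *Krt19* (−0.83, standard error 0.25, adjusted p = 0.583) and *Krt14* (−0.65, standard error 0.23, adjusted p = 0.653) overlapped. In the other direction, *Cdh1*, encoding E-cadherin, was at 109, 137 and 127 FPKM at D-2 and 160.5, 168 and 212 at D0 (0.52, standard error 0.13, adjusted p = 0.408), and the desmosome gene *Dsp* differed by 0.22 (standard error 0.09, adjusted p = 0.709).

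Among 17 matrix and protease genes 2 were higher and 2 lower without overlap (against 7.07% and 4.8% of all genes). Of the 17, 5 were above 0 and 12 below, and the median was −0.08. The 2 higher ones were *Mmp9* and *Timp3*. *Mmp9*, a gelatinase gene, was at 24.4, 20.4 and 18.6 FPKM at D-2 and 28.9, 39.6 and 30.9 at D0 (0.71, standard error 0.19, adjusted p = 0.441). *Timp3*, encoding a metalloproteinase inhibitor, was at 51.4, 51.9 and 48.9 FPKM at D-2 and 63.9, 73.1 and 71.5 at D0 (0.44, standard error 0.11, adjusted p = 0.416).

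Programmes of growth and division showed no common direction. The 20 mitosis genes summed to 13.6 to 55.6 FPKM at D-2 and 20.5 to 36.2 at D0, and their median went from −0.77 to 0.33 as each sample was left out. For 18 DNA replication genes the median was −0.13. The 80 cytosolic ribosomal protein genes (median 0.05) and the 78 respiratory chain genes (median 0.05) had 10 and 6 members higher without overlap on FPKM, and 4 and 1 on TMM-scaled counts, where 7.35% of all genes were higher and 5.67% lower without overlap. Unfolded protein response genes had a median of 0.21 over 13. Without overlap on FPKM 2 were higher and 1 lower, against 7.07% and 4.8% of all genes. On TMM-scaled counts these were 2 and 0. The higher ones on FPKM were *Pdia4* (0.54, standard error 0.17, adjusted p = 0.624) and *Hspa5* (0.32, standard error 0.12, adjusted p = 0.675), both chaperone genes of the endoplasmic reticulum. The lower one was *Herpud1* (−0.42, standard error 0.17, adjusted p = 0.694). In the 11 Notch genes (median 0.18) *Dll4* was the single one without overlap, where 7.07% of all genes were higher on FPKM. The Notch target *Heyl* was at 0.84 (standard error 0.35, adjusted p = 0.702). The heat-shock, ribosome biogenesis, hypoxia, WNT, BMP and p53 lists had medians of −0.04, 0.11, −0.07, 0.13, 0.02 and −0.00316, and the mitochondrially encoded genes −0.33.

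Outside the lists, genes were named by size: a fold-change of at least 2, an unadjusted p of at most 0.01, no overlap and a mean of at least 5 FPKM in the higher group. 15 genes met this in the higher direction and 25 in the lower, none of them called by limma-voom, and the 12 largest of each are named. Of those named, DESeq2 called 6 higher (*Psmb11*, *Prss16*, *Mfsd12*, *Mreg*, *Mn1* and *Mpp2*) and 3 lower (*Zbtb16*, *Rn7sk* and *Hist1h2ao*), and edgeR called *Hist1h2ao*. Among the higher ones were *Psmb11*, *Dll4* and *Prss16*. *Mfsd12*, needed for cysteine import into lysosomes, was at 4.69, 7.96 and 11.6 FPKM at D-2 and 19.6, 21.9 and 19.6 at D0 (1.38, standard error 0.26, adjusted p = 0.184). *Mreg*, for melanoregulin, was at 17.2, 27.7 and 25.8 FPKM at D-2 and 40.5, 53.4 and 58.5 at D0 (1.1, standard error 0.22, adjusted p = 0.217). *Ptges3*, encoding the HSP90 co-chaperone p23, was at 22.6, 29.5 and 11.6 FPKM at D-2 and 41.2, 34.0 and 54.7 at D0 (1.13, standard error 0.30, adjusted p = 0.441). The transcriptional coregulator gene *Mn1* (1.41), the scaffold gene *Mpp2* (1.46), *Cdr2l* (1.37), the mitochondrial dynamics gene *Mief1* (1.2) and *Lsm14b* (1.12) had adjusted p-values between 0.199 and 0.544. The twelfth, the immunoglobulin segment *Igkv10-96*, was listed at 0 in 2 D-2 samples and at 2.88 FPKM in the third, against 7.94, 18.4 and 21.1 at D0, and its reads can be shared with related segments.

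The lower ones included *Zbtb16*, *Serpina3n* and *Angptl4*. *Depp1*, a target of FOXO factors, was at 26.6, 12.5 and 41.9 FPKM at D-2 and 8.50, 9.49 and 7.71 at D0 (−1.46, standard error 0.40, adjusted p = 0.462). *Edn1*, encoding endothelin-1, was at 5.10, 7.94 and 5.92 FPKM at D-2 and 3.02, 2.79 and 2.45 at D0 (−1.29, standard error 0.33, adjusted p = 0.416). *Aplp1*, of the amyloid precursor family, was at 6.46, 8.13 and 6.89 FPKM at D-2 and 2.83, 2.26 and 2.62 at D0 (−1.34, standard error 0.36, adjusted p = 0.439). *Skint4* (−1.29) belongs to a multigene family whose members share reads, and the antisense gene *D830025C05Rik* (−1.61) and the transcript *Gm45193* (−1.53) were at most 17.3 and 11.4 FPKM in any sample. The remaining 3 have near-identical copies or close relatives in the genome, among which reads could be split, and are uncertain. The histone gene *Hist1h2ao* was at 65.3, 31.1 and 64.6 FPKM at D-2 and listed at 0 in all D0 samples, the single call of edgeR. *Zfp97* was at 4.95, 4.54 and 10 FPKM at D-2 and listed at 0 in 2 D0 samples. *Rn7sk*, the 7SK small nuclear RNA with many genomic copies, was at 234, 481 and 315 FPKM at D-2 and 68.9, 89.0 and 141 at D0 (−1.73, standard error 0.30, adjusted p = 0.173). Its level also varied widely within other cTEC time points, over 16.1 to 706 FPKM in NPC and 9.23 to 100 at D6.

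Set beside the other cTEC time points, *Psmb11*, *Prss16* and *Dll4* were lower at D0 than in every later sample drawn. *Psmb11* ranged over 73.8 to 231 FPKM in NPC, was 179 and 254 in the single samples of D1 and D2, and 151 to 332 at D3. *Prss16* was 1194 to 2019.7 in NPC, 975 at D1, 1881 at D2 and 2564 to 3046 at D6, so that every D0 sample lay below every NPC sample. *Dll4* did the same, at 19.8 to 25.8 in NPC against 8.19 to 10.3 at D0. *Psmb11* and *Foxn1* differed from *Prss16* and *Dll4* in that their D0 samples lay within the NPC range. That range was 67.8 to 220.5 for *Foxn1*, and the D0 samples of *Psmb11* were at 79.2 to 85.7. The low end of both ranges came from 1 mouse, NPC replicate 3 (73.8 FPKM for *Psmb11* and 67.8 for *Foxn1*). Every D0 sample of both genes lay below NPC replicates 1 and 2. *Fabp5* was 676 to 1443 FPKM in NPC and 1496 to 2090.3 at D6. *Serpina3n* went the other way, with 11.2 to 40.7 FPKM in NPC, 25.3 at D1 and 6.51 to 9.59 at D6, all below D0. *Zbtb16* had single high samples at NPC, D3 and D12, the ranges being 0 to 4.02, 0 to 7.95 and 0.480 to 5.19. The time points share the D0 samples, and these levels were not tested against each other.

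**Figure D4:**
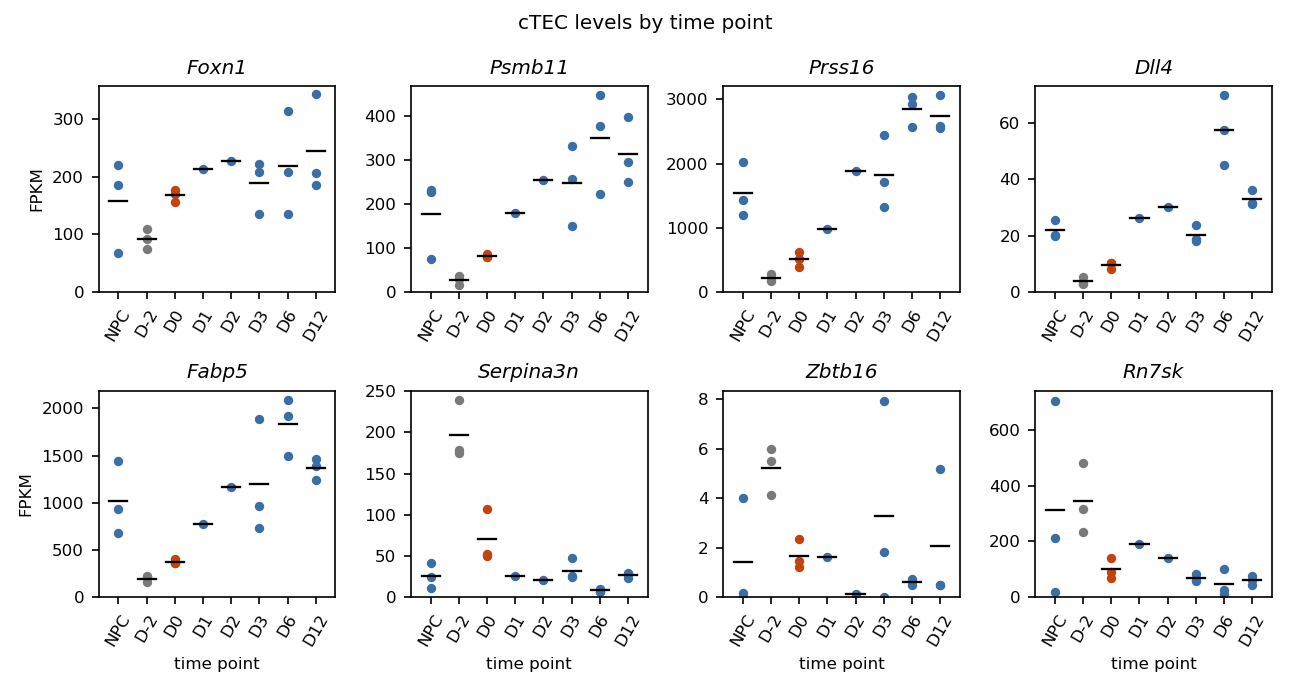
FPKM of 8 genes in cTECs of non-pregnant controls (NPC), at D-2 (grey), D0 (orange) and D1 to D12 (blue), 1 point per mouse and a black bar for the mean. D1 and D2 have 1 sample and each of the others has 3, and the time points are spaced evenly and not by day. *Psmb11*, *Prss16* and *Dll4* at D0 lie between D-2 and later days, and *Serpina3n* is highest at D-2.

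To ask whether the difference was particular to cTECs, the change was compared with that of mTECs from the same 2 time points in an interaction model over 12 samples and 18394 genes. The cTEC and mTEC samples of a time point carry the same numbers in their titles, so the 12 may come from 6 mice, which the sources used here do not state. No interaction was called by limma-voom (0.0%) or reached an adjusted p of 0.05, with 959 genes (5.21%) at an unadjusted p of at most 0.05 by limma-voom and 565 by edgeR, which called none either. In mTECs alone limma-voom called no gene of 17743, with 1257 (7.08%) at an unadjusted p of at most 0.05. A p that misses the threshold does not show that the cell types changed alike.

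The thymopoiesis list had a median of 0.16 in mTECs, with 2 of 13 higher without overlap (5.06% of all genes tested in mTECs), against 0.43 and 6 of 13 in cTECs. *Dll4* had one of the largest interactions (1.30, standard error 0.44, adjusted p = 0.855), its mTEC samples being 4.06 to 7.10 FPKM at D-2 and 6.60 to 7.02 at D0. *Foxn1* differed by 0.07 in mTECs (interaction 0.80, standard error 0.31, adjusted p = 0.855). *Psmb11* and *Prss16* differed by 0.57 and 0.79 in mTECs, where *Prss16* also separated the time points, at 32.3 to 81.5 and 109 to 120.4 FPKM.

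For genes with negative values in cTECs, the mTEC values stood as follows. *Zbtb16* was −2.05 and *Serpina3n* −1.38 in mTECs, with interactions of 0.06 and −0.16 (standard errors 0.56 and 0.44). The steroid response list had 6 of 17 members lower without overlap in mTECs (against 7.06% of all genes) and a median of −0.38. *Krt15*, *Krt14* and *Cldn1* were 0.06, 0.20 and 0.17 in mTECs, with interactions of −1.16, −0.83 and −0.95, each with an adjusted p of 0.855. *Fabp5*, whose value in cTECs was positive, was −0.04 in mTECs (interaction 0.97, standard error 0.22, adjusted p = 0.843).

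By the same naming rule the largest positive interactions were *Reg1*, *C1qb*, *Khnyn*, *Dll4* and *Tnpo2*, and the largest negative ones *Zfp97*, *Rmrp*, *Dcpp3*, *Gm4737* and *Prg3*, with adjusted p-values of 0.843 to 0.855. *Khnyn*, with a difference of 0.78 in cTECs and −0.75 in mTECs, and the nuclear import gene *Tnpo2*, with 0.90 and −0.30, were measured in every sample. The others except *Dll4* were listed at 0 in at least 1 cTEC sample, and *Dcpp3* in all 3 at D0.

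**Figure D5:**
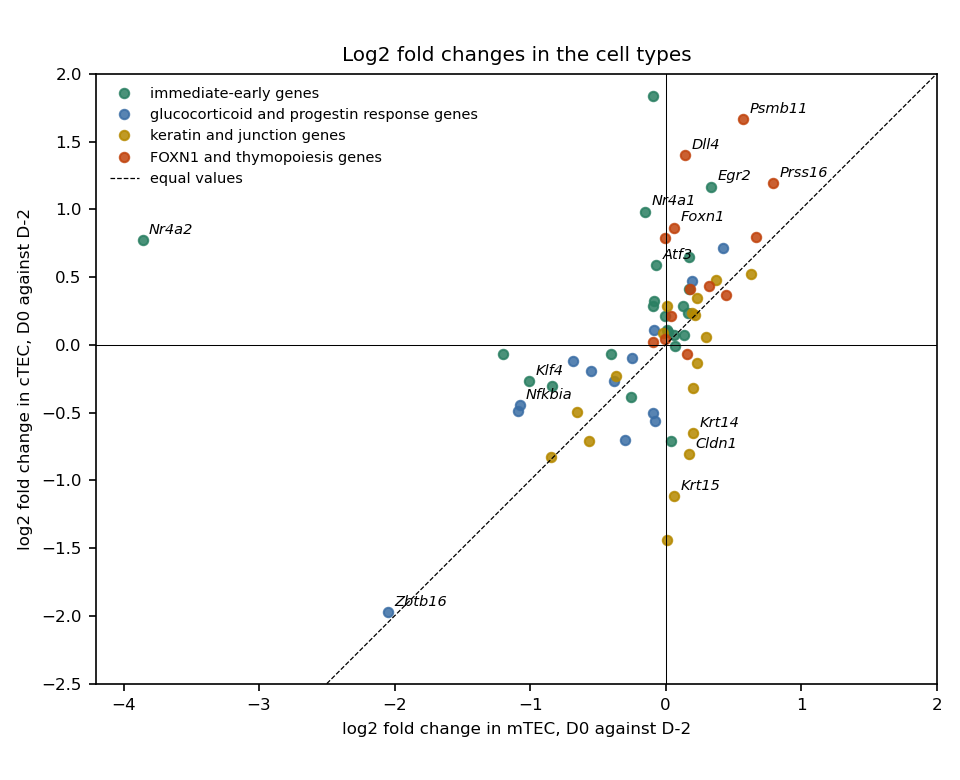
Log2 fold changes of D0 against D-2 in mTECs (horizontal) and cTECs (vertical) for the members of 4 lists, with equal values on the dashed line. *Psmb11*, *Dll4*, *Prss16* and *Foxn1* lie above the line, *Krt15*, *Krt14* and *Cldn1* below it, and *Zbtb16* on it.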

How the data were processed

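Sorted cTECs and mTECs were profiled by stranded poly(A) RNA-seq, 1 mouse per replicate. Per the labels and the study's methods, the authors demultiplexed reads with bcl2fastq 2.20, trimmed them with Trimmomatic 0.35, aligned them to GRCm38 with STAR 2.5.1b and quantified genes with RSEM 1.2.28. The deposited files give an expected count and an FPKM per gene and sample. Expected counts were rounded to whole numbers for the tests, and 50376 of 50600 gene identifiers were given symbols and coordinates from GENCODE M21, since the annotation release was not given in the sources used here.

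Genes with a mean of at least 0.5 FPKM over the 28 cTEC samples were tested between the 3 D0 and 3 D-2 samples by limma-voom (limma 3.58.1, edgeR 4.0.16 for TMM factors, R 4.3.3), with Benjamini-Hochberg adjustment. The difference from mTECs was an interaction term (cell type by time point) over 12 samples. The alternatives were the edgeR quasi-likelihood test, DESeq2 1.42.0, limma-trend on FPKM (log2 after adding a pseudocount of 0.5 or of 0.1), sample quality weights, no TMM, other filters and thresholds, fits to 18 or 28 samples, replicate blocks, and each sample left out. Groups did not overlap where all 3 FPKM values of one lay above all 3 of the other. The 36 lists, 8 of them cell type markers, and the members were chosen with earlier results of these data known. Named genes were list members plus the 12 largest differences in each direction and the 5 largest interactions of each sign under the limits given with them. Where fewer genes were called, places were filled with genes not called, and pseudogenes and genes without a symbol were left out. Scripts were tested on simulated data. Figures were drawn with matplotlib 3.10.9. Some list members are not reported here.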

Additional observations from a re-analysis of the deposited data

How the results depend on the processing

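The count of called genes was 0 by limma-voom, 1 by edgeR, 21 by DESeq2 (8 of them with a sample at 0 FPKM, and 175 genes without an adjusted p) and 6 without a filter on level, *Psmb11*, *Serpina3n* and *Hist1h2ao* among them. As each sample was left out it ranged from 0 to 2, the 2 being *Angptl4* and *Serpina3n* without D0 replicate 2. Genes at an unadjusted p of at most 0.05 fell from 1107 to 614 and 623 in the fits to 18 and 28 samples, and ranged from 863 to 1127 as each sample was left out. For the difference from mTECs that count was 959, with 565 by edgeR and 599 to 938 as each cTEC sample was left out. Without replicate 1 of both time points, an alternative chosen after seeing the data, 3184 genes were higher and 2471 lower without overlap, which 2 samples against 2 reach more easily by construction. With the replicate block 0 genes were called and 1158 had an unadjusted p of at most 0.05, and for the interaction 0 and 651. With same-titled cTEC and mTEC samples as a block, the interaction had 0 and 1099, and the deviations of those pairs correlated at 0.00806 to 0.0737. The deviations of same-numbered samples correlated at 0.022, −0.013 and 0.022, so the replicate numbers were not taken to pair the mice. Of 1774 values of 103 single-gene differences (in cTECs or from mTECs) under the alternatives, 1755 kept direction and side of the threshold, 15 passed it in addition and 4 changed sign. The sign changes were *H2-Aa* with quality weights (-3.19e-06), without D0 replicate 2 (−0.0153) and without D-2 replicate 2, and *H2-Ab1* without D-2 replicate 2, and the cause was not tested. As each sample was left out, *H2-Aa* ranged from −0.0417 to 0.0702 and *H2-Ab1* from −0.0307 to 0.0948. List medians were less stable. Of 648 under the alternatives, 42 moved, in 13 lists, 13 of them with no sample left out, and 18 of the 36 medians changed sign as single samples were left out. With 3 mice a group, differences of over 6 standard errors (*Foxn1*) missed an adjusted p of 0.05.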
